A study of Mus musculus with 54 samples.

Results

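The 10 genes described here encode proteins that join mitochondria, divide them, or mark damaged ones for removal by autophagy. They were chosen by name and not by a rule on measured values, but with earlier results of these data known. They are Opa1, Mfn1 and Mfn2 for fusion, Dnm1l, Fis1 and Mff for fission, and Pink1, Bnip3, Bnip3l and Fundc1 for mitophagy. They make up 10 of the 54356 genes in the tables. All 10 had a mean of at least 10 normalized counts in the hearts and in the livers and were tested in both. RNA came from whole hearts and whole livers of C57BL/6 mice that were 20 weeks old and ate a high-fat diet with 42% of its energy as fat. There were 3 genotypes with 3 mice each. Mrps12+/+ mice carried the wild-type gene. Mrps12ep/ep mice were homozygous for the error-prone mutation and Mrps12ha/ha mice for the hyper-accurate mutation of MRPS12, a protein of the decoding site in the small subunit of the mitochondrial ribosome. Homozygotes were bred from heterozygous parents and matched with wild-type mice by age and litter, and all groups ate the same diet, so that no group shows the genotypes without it. Each mouse gave 1 value per gene and tissue, in which the 3 technical libraries listed for it in the labels are taken to be pooled. The p-values below measure the spread between these mice. The comparisons asked how the RNA of each tissue differed between the genotypes.

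Mitochondria in the heart and liver form a network that is remodelled by fusion and fission. The outer membranes are joined by the mitofusins MFN1 and MFN2 and the inner membranes by OPA1, which also holds the cristae in shape. Division needs the GTPase DRP1, made from Dnm1l, which is drawn to the outer membrane by adaptors such as MFF, with FIS1 as another outer membrane protein linked to fission and mitophagy. PINK1 builds up on mitochondria that have lost their membrane potential and starts their removal, while BNIP3, NIX (made from Bnip3l) and FUNDC1 are outer membrane receptors that bind the LC3 family directly. Bnip3 is a known target of the hypoxia-inducible factors. OPA1, MFN2 and PINK1 are also controlled after transcription, by cleavage or turnover of the protein, which RNA does not show.

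The depth differed between mice, from 11202876 to 51480319 reads in the hearts and from 21238157 to 81518208 in the livers. The shallowest heart was Mrps12ha/ha mouse 2, where 1 read equalled 3.02 normalized counts. The same heart also stood apart from the other Mrps12ha/ha hearts in its values. Of the 16057 genes tested in the heart, 43.6% lay within the range of the 3 Mrps12+/+ hearts in this mouse, against 23.1% in Mrps12ha/ha mouse 1 and 25.4% in mouse 3. Its Irs2 and Gm15387 values went with those of the other Mrps12ha/ha hearts. Irs2 was at 260, 326 and 347 in the 3 Mrps12ha/ha hearts and at 934 or more in the Mrps12+/+ hearts. The pseudogene Gm15387 was at 0 in all 3 and at 314 or more in every other heart. Gm15387 was singled out after its values were seen, and Irs2 passed the test between these genotypes with this heart included (below). Neither gene is therefore an independent check of the label. Results that rest on this mouse are given with and without it. Mrps12 itself, which the mutations do not remove, had a mean of 1271 ± 165 (SD, n = 3) in Mrps12ha/ha, 1161 ± 117 in Mrps12ep/ep and 1078 ± 67.9 in Mrps12+/+ hearts. All 12 cardiomyocyte markers were read in the hearts, where they summed to between 2679929.8 and 4044384.8 normalized counts, and the 10 hepatocyte markers summed to between 5741635.1 and 6909739.8 in the livers. In whole tissue, fewer cells of a type and less RNA per cell cannot be told apart.

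Promoter sequences are shown for 3 of the genes that the results below turn on: Opa1 and Fis1, which lay on opposite sides of the wild-type values in the same hearts, and Bnip3, which differed most between the mutants' livers after Mfn1. They come from RefSeq on GRCm38.p6, run 5′ to 3′ on the gene's strand and end at the base before the first annotated exon. Capitals mark the matches to 8 motifs searched on both strands.
Opa1 (chr16:29579084-29579333, plus strand): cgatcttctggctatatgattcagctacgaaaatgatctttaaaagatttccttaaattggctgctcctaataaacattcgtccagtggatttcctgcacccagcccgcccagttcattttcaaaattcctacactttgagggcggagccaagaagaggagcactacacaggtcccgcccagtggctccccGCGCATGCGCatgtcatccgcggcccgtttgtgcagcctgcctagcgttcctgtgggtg
Fis1 (chr5:136953025-136953274, plus strand): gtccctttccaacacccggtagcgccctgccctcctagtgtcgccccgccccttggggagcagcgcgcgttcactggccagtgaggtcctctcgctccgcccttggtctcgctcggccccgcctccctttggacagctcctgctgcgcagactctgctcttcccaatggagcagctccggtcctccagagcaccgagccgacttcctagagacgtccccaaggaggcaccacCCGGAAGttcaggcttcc
Bnip3 (chr7:138909520-138909756, minus strand): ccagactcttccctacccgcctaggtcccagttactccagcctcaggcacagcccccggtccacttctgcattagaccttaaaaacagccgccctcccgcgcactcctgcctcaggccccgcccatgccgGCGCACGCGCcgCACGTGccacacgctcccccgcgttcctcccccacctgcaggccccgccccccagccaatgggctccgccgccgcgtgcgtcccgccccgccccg
In Opa1 the capitals spell the motif of NRF1, a regulator of nuclear genes for mitochondrial proteins, which begins 59 bases before the end of the printed sequence. In Fis1 they spell the ETS motif of GABP, CCGGAAG, at 18 bases. In Bnip3 an NRF1 match begins 107 bases before the end of the printed sequence and is followed by CACGTG at 95 bases, an E-box that holds the hypoxia response core ACGTG on both strands. RefSeq promoters were found for 9 of the 10 genes, all but Bnip3l. Of these, 3 held the NRF1 motif in the 250 bases before a start site (Opa1, Pink1 and Bnip3), as did 4.23% of 27025 genes. The ETS motif was in 2 (Mfn1 and Fis1) and in 7.83% of all genes, ACGTG in 2 (Mfn2 and Bnip3) and in 18.5%, and the E-box in 1 (Bnip3) and in 6.86%. No window held the ERR motif TCAAGGTCA, the CRE motif TGACGTCA, the FoxO motif GTAAACA or the YY1 motif, which were in 0.422%, 1.77%, 3.54% and 0.359% of genes. A match is a run of letters and not a measured binding site. Some of the genes share ground with other transcripts in the annotation: Mfn2 with Gm13156, Dnm1l with Gm49521, Mff with C430014B12Rik and Bnip3 with Gm18258 and Gm45507 on the opposite strand, and Mff with Gm28941 and Pink1 with Gm27646 and Mir7019 on the same strand. The genes were quantified with a stranded setting, so that reads of opposite strands were kept apart, and reads shared with Gm28941, Gm27646 or Mir7019 on the same strand may be split uncertainly.

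Mitophagy and fusion genes gave the highest levels in wild-type hearts. Levels are normalized counts per kb of each gene's longest coding transcript, and this scale is used only to set genes beside each other. In Mrps12+/+ hearts Pink1 led with 10157 ± 1068 per kb (SD, n = 3), followed by Mfn2 with 7187 ± 16.4 and Bnip3 with 4233 ± 706. Mfn1 followed with 2473 ± 90.8 and Fis1 with 2265 ± 131, and the ranges of these neighbours overlapped. Mff, Dnm1l, Opa1 and Bnip3l came next at 1787 ± 82.7, 1376 ± 92.6, 1111 ± 67.6 and 922 ± 46.1, and Fundc1 was last at 393 ± 15.4. The other neighbours in this order did not overlap. On this scale Mfn2 stood above Mfn1 in every heart of every genotype. With the median length of the coding transcripts in place of the longest, Mfn1 passed Bnip3, Opa1 passed Dnm1l and Fundc1 passed Bnip3l.

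The liver had another order. Bnip3 led with 6802 ± 1400 per kb in Mrps12+/+ livers, ahead of Pink1 with 3801 ± 222 and Fis1 with 2711 ± 273. Mfn2 at 1343 ± 209 and Bnip3l at 1185 ± 201 overlapped. Opa1 at 604 ± 74.8, Mff at 581 ± 32.05, Dnm1l at 554 ± 28.4 and Mfn1 at 496 ± 97.1 formed a run in which each overlapped the next. Fundc1 was last at 200.0 ± 33.6. Tissues were normalized separately, so that only the orders can be set side by side, with Mfn2 and Mfn1 at ranks 2 and 4 in the heart and at ranks 4 and 9 in the liver. With the median length Mfn1 stood at rank 5 in the liver.

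**Figure D1:**
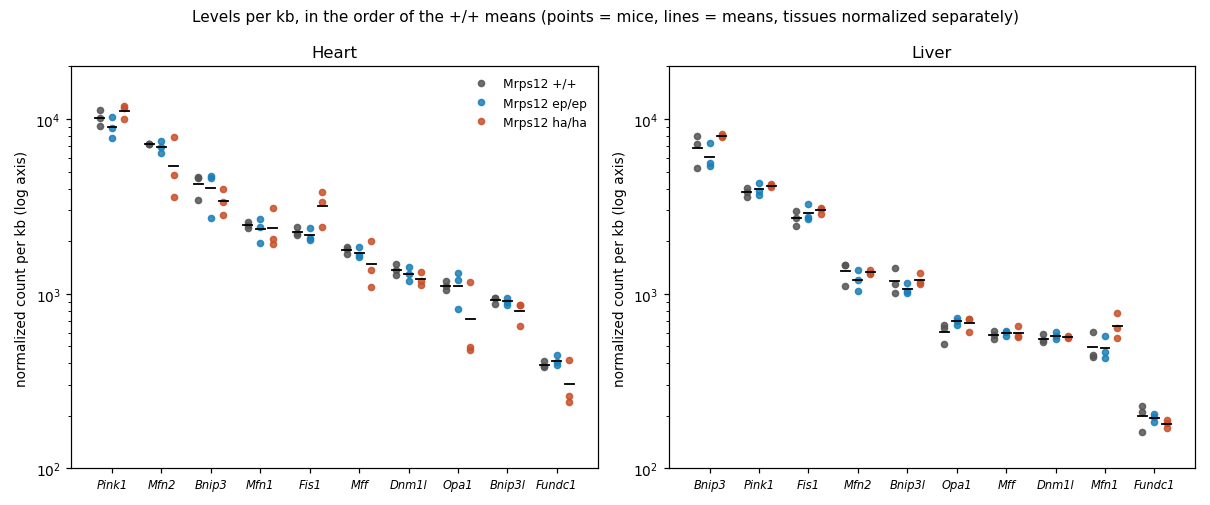
Normalized counts per kb of longest coding transcript (log axis) of the 10 genes in hearts (left) and livers (right), ordered by the mean of the Mrps12+/+ mice, with a point for each mouse and a line at each group's mean (n = 3). Pink1 and Mfn2 lead in the heart and Bnip3 and Pink1 in the liver, with Fundc1 last in both.

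In Mrps12ha/ha hearts the fusion genes Opa1 and Mfn2 were much lower in mice 1 and 3, and in mouse 2 they lay inside or above the wild-type range. No member of the 10 had an adjusted p under 0.05 against Mrps12+/+ hearts, where 0.0311% of genes did (limma). An unadjusted p under 0.05 was reached by 2 of the 10, Opa1 and Fis1, and by 19.7% of all genes. The groups did not overlap for 2 of the 10, Fis1 and Bnip3l, and for 21.2% of all genes. These shares are near the background. The log2 fold change was below 0 for 8 of the 10, with a median of -0.27 beside -0.02 over all genes tested.

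Opa1 was at 7366, 6528 and 6875 normalized counts in Mrps12+/+ hearts 1 to 3 and at 2980, 7303 and 3088 in Mrps12ha/ha hearts. Mrps12ha/ha hearts 1 and 3 lay far below every wild-type heart, and heart 2 lay inside the wild-type range. The mean was 35.6% lower, with a log2 fold change of -0.77 (SE 0.32, 95% confidence interval -1.49 to -0.04, adjusted p = 0.238, exact permutation p = 0.3, where the smallest p that 3 against 3 mice allow is 0.1). Mfn2 was at 31118.5, 31249 and 31232 in Mrps12+/+ hearts, which agreed closely, and at 15634, 34151 and 20749 in Mrps12ha/ha hearts. Its log2 fold change was -0.48 (SE 0.25, interval -1.04 to 0.07, adjusted p = 0.292). Mice 1 and 3 were again low and mouse 2 lay above the wild-type range. Mfn1, the other mitofusin, was at 11277, 10873 and 11702 in Mrps12+/+ hearts and at 8847, 14204 and 9333 in Mrps12ha/ha hearts. This was a smaller difference, -0.10 (SE 0.19, adjusted p = 0.784), with mouse 2 the highest of all 9 hearts.

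Of 5 ratios between members, 2 were separate between Mrps12ha/ha and Mrps12+/+ hearts. The ratios were chosen after the values were seen, so they are given as a description with no test. The ratio of Opa1 to Mfn1 was 0.337, 0.514 and 0.331 in Mrps12ha/ha hearts and 0.653, 0.600 and 0.588 in Mrps12+/+ hearts. The ratio of Mfn2 to Mfn1 was 1.77, 2.40 and 2.22 in Mrps12ha/ha hearts and 2.76, 2.87 and 2.67 in Mrps12+/+ hearts. In both ratios mouse 2 lay nearest to the other genotypes, and its Mfn1, the denominator, was the highest of all 9 hearts. The ratios of Fis1 to Mff (1.07 ± 0.457 against 0.576 ± 0.0150, SD, n = 3), of Fis1 to Opa1 (0.852 ± 0.469 against 0.312 ± 0.0364) and of Bnip3 to Bnip3l (2.30 ± 0.188 against 2.48 ± 0.483) overlapped between these groups.

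Of the fission genes, Fis1 was higher and Mff and Dnm1l were lower in Mrps12ha/ha mice 1 and 3 than in all Mrps12+/+ hearts. Fis1 was at 2047, 2286 and 2108 in Mrps12+/+ hearts and at 3197, 2286 and 3609 in Mrps12ha/ha hearts. All 3 Mrps12ha/ha values were above the wild-type ones, but by only 0.3 normalized counts for mouse 2, less than 1 read. The log2 fold change was 0.47 (SE 0.16, interval 0.11 to 0.84, adjusted p = 0.213, exact permutation p = 0.1). Mff, the main adaptor for DRP1, was at 3540.1, 3879 and 3767 in Mrps12+/+ hearts and at 2281, 4159 and 2855 in Mrps12ha/ha hearts, a difference of -0.31 (SE 0.19, adjusted p = 0.354). Mouse 2 had the highest Mff of the 9 hearts. Dnm1l, for DRP1 itself, was at 5834, 5435 and 5100.3 in Mrps12+/+ and at 4664, 5264 and 4469.5 in Mrps12ha/ha hearts, a difference of -0.19 (SE 0.12, interval -0.45 to 0.07, adjusted p = 0.358). The groups overlapped for Mff and for Dnm1l.

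The mitophagy receptors were lower in Mrps12ha/ha mice 1 and 3 as well, and Pink1 was not. Fundc1 was at 769, 814 and 756 in Mrps12+/+ hearts and at 475, 828 and 517 in Mrps12ha/ha hearts, with a log2 fold change of -0.41 (SE 0.19, interval -0.84 to 0.02, adjusted p = 0.268). Bnip3 was at 8068, 6005 and 8226 and at 4963, 6994.5 and 5913.5 in the same order, a difference of -0.32 (SE 0.23, adjusted p = 0.429) with overlapping groups. Bnip3l was at 2832, 3100.0 and 3083.5 and at 2143, 2827 and 2817, a difference of -0.22 (SE 0.13, adjusted p = 0.324, exact permutation p = 0.1). All 3 Mrps12ha/ha hearts had less Bnip3l than the wild-type hearts, with a gap of 5.4 normalized counts or 1.79 reads for mouse 2. Pink1 was at 21633, 24034 and 26704 in Mrps12+/+ hearts and at 23718, 27356 and 28059 in Mrps12ha/ha hearts, a difference of 0.13 (SE 0.16, interval -0.22 to 0.48, adjusted p = 0.631).

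**Figure D2:**
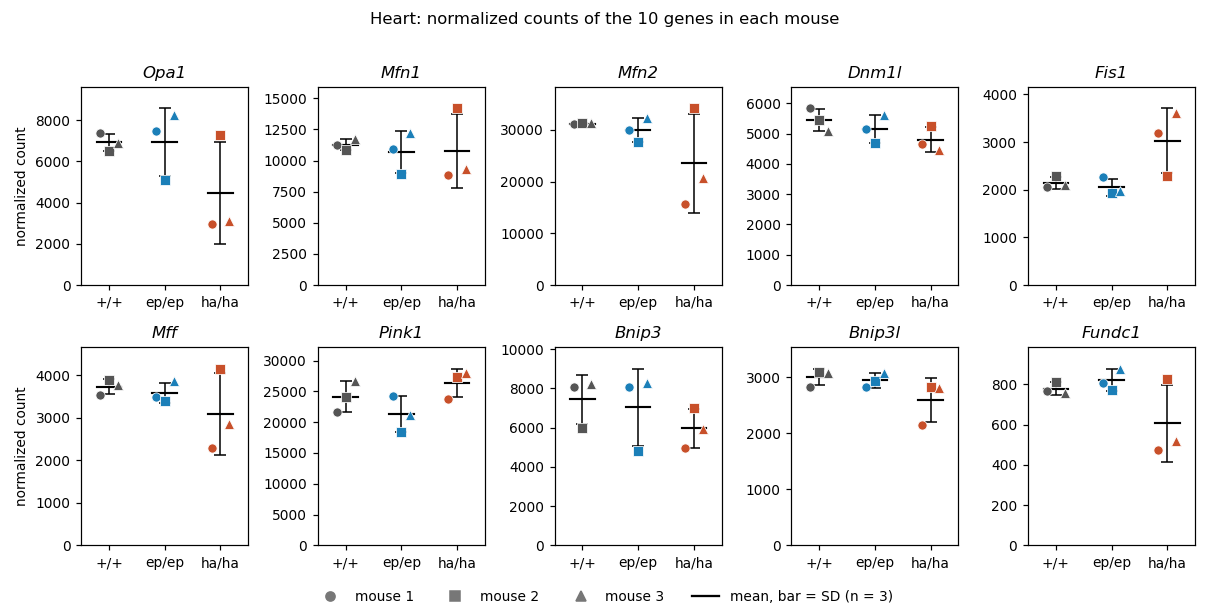
Normalized counts of the 10 genes in the 9 hearts (vertical axes start at 0), with a marker shape for each mouse number, which is not taken to pair the groups, a line at each mean and a bar of 1 SD (n = 3). Mrps12ha/ha mice 1 and 3 lie below the wild-type range for 8 of the 10 genes each, all but Fis1 and Pink1, beside 39.3% and 37.6% of all genes. They lie above it for 1 and 2 of the 10, with Fis1 in both, beside 37.7% and 37.0%. Mouse 2 lies above the wild-type range for 6 of the 10 genes, within it for 3 and below it for 1, beside 27.8%, 43.6% and 28.6% of all genes.

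Without Mrps12ha/ha mouse 2 the comparison changed. Of the 16057 genes tested, 4330 then had an adjusted p under 0.05 (limma), and 5 of the 10 members did: Opa1, Mfn2, Mff and Fundc1 were lower, as were 14.8% of genes, and Fis1 was higher, as were 12.2%. The log2 fold changes were -1.19 for Opa1 (SE 0.19, adjusted p = 0.00484), -0.79 for Mfn2 (SE 0.14, adjusted p = 0.00739), -0.65 for Fundc1 (SE 0.10, adjusted p = 0.00476), -0.55 for Mff (SE 0.11, adjusted p = 0.0117) and 0.66 for Fis1 (SE 0.11, adjusted p = 0.00503). Mfn1 (-0.31), Dnm1l (-0.25), Bnip3 (-0.44), Bnip3l (-0.29) and Pink1 (0.10) did not pass the test. With array weights, which give each heart a weight from its fit, 34.7% of genes passed and 5 members did. Which hearts represent the genotype cannot be told from 3 mice, and a call that needs 1 of them left out has 2 mice behind it.

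Over all genes tested, the difference in these hearts went with transcript length. Across the genes tested, the log2 fold change of Mrps12ha/ha against Mrps12+/+ hearts had a Spearman rho of -0.18 with the length of the longest coding transcript and 0.20 with its GC content. In mice 1 and 3 the median gene under 1 kb was 0.31 and 0.32 above the wild-type mean on the log2 scale, and the median gene of 4 kb and over was 0.13 below it in both. In mouse 2 these medians were 0.08 and -0.02. Fis1 has the shortest transcript of the 10 with 0.948 kb (54.4% GC) and Opa1 the longest with 6.23 kb (43.5% GC). Opa1 at -1.21 and -1.16 in mice 1 and 3 and Mfn2 at -0.997 and -0.59 lay far below the median of their length class. Mff (2.087 kb) and Fundc1 (1.983 kb) were also low in these mice, at -0.71 and -0.38 and at -0.71 and -0.59. The trend on length and GC was then taken out of each heart, a step added after the data were seen. Over all 3 Mrps12ha/ha hearts the differences became -0.59 for Opa1, -0.43 for Mfn2, -0.38 for Fundc1, -0.27 for Mff and 0.26 for Fis1. Before this step they were -0.77, -0.48, -0.41, -0.31 and 0.47 over the same hearts. None of the 10 passed with all hearts kept, beside 6 of 16057 genes. Under that step 5 of the 10 passed when mouse 2 was also left out, beside 24.2% of genes. No test related length to the values of the 10 genes themselves.

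**Figure D3:**
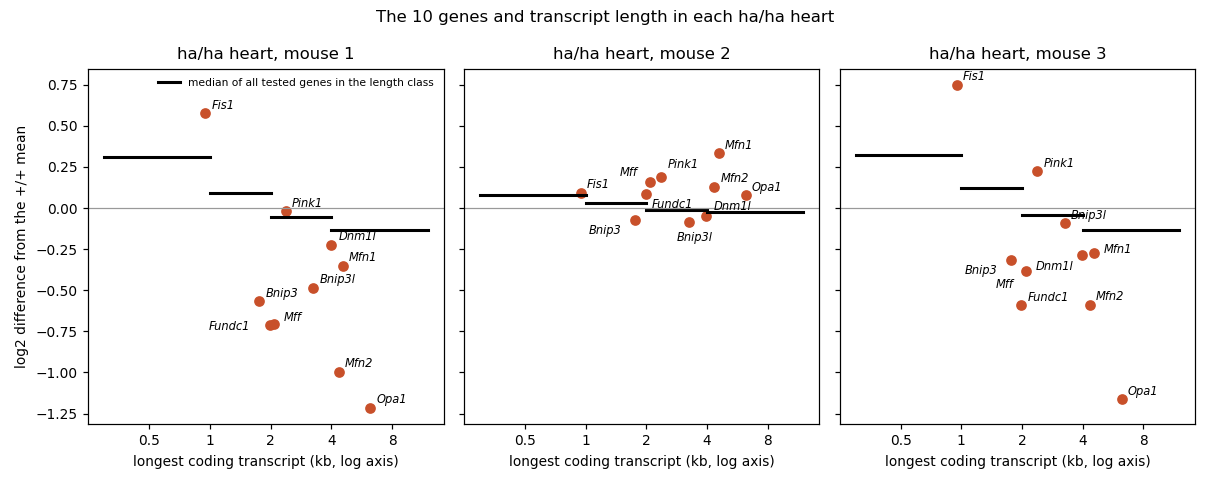
Log2 difference of each of the 10 genes from the Mrps12+/+ mean in each Mrps12ha/ha heart, against the length of its longest coding transcript in kb (log axis), with black lines at the median of all tested genes in 4 length classes. In mice 1 and 3 the class medians fall from 0.31 and 0.32 to -0.13 and Opa1 and Mfn2 lie far below them, and in mouse 2 the 10 genes lie between -0.09 and 0.33.

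Summed markers of cell types differed between these hearts too. The 12 cardiomyocyte markers summed to between 3664599.5 and 4044384.8 normalized counts in Mrps12ha/ha hearts, above every Mrps12+/+ heart (up to 3477262.5) and every Mrps12ep/ep heart (up to 3560754.2). They did not rise as a group: against Mrps12+/+ hearts the log2 fold change was above 0 for 6 of the 12 and below 0 for 6, with a median of -0.03. The 10 erythroid markers summed to 465199, 200326 and 1413489 normalized counts in Mrps12ha/ha mice 1 to 3 and to between 92929.8 and 236675 in Mrps12+/+ hearts. The 8 atrial markers summed to between 14768 and 26254 in Mrps12ha/ha hearts, all below the Mrps12+/+ range of 32138 to 255570. Mrps12ep/ep hearts ran from 20819 to 535801 and overlapped with both. The 8 adipocyte markers summed to between 1276 and 1498 in Mrps12ha/ha and to between 1366 and 18645 in Mrps12+/+ hearts. The 10 macrophage and 12 skeletal muscle markers overlapped between these groups, at 7505 to 10239 against 7894 to 8819 and at 64896 to 76620 against 63823 to 106671. Their part in the values of the 10 genes was not tested.

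None of the 10 had an adjusted p under 0.05 in Mrps12ep/ep against Mrps12+/+ hearts (limma), and 0% of genes did. None had an unadjusted p under 0.05 either, beside 1.69% of genes, and no member's groups were separate, beside 8.03%. The log2 fold changes ran from -0.18 for Pink1 to 0.07 for Fundc1, with a median of -0.06 beside -0.01 over all genes. Opa1 was at 7470, 5085 and 8240 in Mrps12ep/ep hearts, with a difference of -0.03 (interval -0.75 to 0.70). The interval reaches close to the difference fitted for Mrps12ha/ha hearts. Its width rests on a spread shared by all 3 genotypes, with an SE of 0.32, and of 0.17 without Mrps12ha/ha heart 2. In mouse 2 of this genotype 8 of the 10 genes were below the wild-type range and 0 above it, beside 32.4% and 32.2% of all genes. In mouse 1, 3 were below and 1 above, beside 26.9% and 24.3%, and in mouse 3, 2 were below and 5 above, beside 24.2% and 23.4%. Heart 2 also had the highest summed atrial markers of all hearts, 535801, the highest macrophage markers, 15018.9, and the lowest cardiomyocyte markers, 2679929.8. In that heart Mfn2 was at 27617, Pink1 at 18427 and Bnip3 at 4784.

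Against Mrps12ep/ep hearts, which share the Mrps12ha/ha mice with the comparison above, Mrps12ha/ha hearts had none of the 10 past the adjusted threshold, beside 0.0249% of genes. Unadjusted p-values under 0.05 were found for 3 of the 10, beside 17.9% of genes: Fis1 (0.54, SE 0.16, adjusted p = 0.238), Fundc1 (-0.48, SE 0.19, adjusted p = 0.260) and Opa1 (-0.74, SE 0.32, adjusted p = 0.274). The groups were separate for Fis1 alone, beside 16.6% of genes. Its gap was 25.6 normalized counts. Without Mrps12ha/ha mouse 2, 5 of the 10 passed the adjusted threshold, beside 23.2% of genes: Fis1 at 0.73, and Opa1, Mfn2, Fundc1 and Mff at -1.16, -0.73, -0.73 and -0.49. With array weights 7 of the 10 passed, beside 39.3%.

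The log2 values, centred on the tissue mean, had SDs from 0.05 for Dnm1l to 0.30 for Mfn1 over 9 livers, and from 0.13 for Dnm1l to 0.56 for Opa1 over 9 hearts. Mfn1 had the larger SD in the liver (0.23 in the heart), Bnip3l had 0.16 in both, and the other 8 had the larger SD in the heart. This difference in spread was not tested. In the 3 liver comparisons none of the 10 had an adjusted p under 0.05 (limma), beside 0.00653% of genes in each.

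Mfn1 had the largest difference in Mrps12ha/ha livers. It was at 2773, 1973 and 2045 in Mrps12+/+ livers, at 1953, 2123.5 and 2610.1 in Mrps12ep/ep livers and at 2544, 3535.5 and 2897 in Mrps12ha/ha livers. The Mrps12ha/ha livers overlapped with both other genotypes. The log2 fold change was 0.41 against Mrps12+/+ (SE 0.17, interval 0.02 to 0.80, adjusted p = 0.337) and 0.42 against Mrps12ep/ep (SE 0.17, adjusted p = 0.558). Bnip3 was at 9206, 12662 and 13963 in Mrps12+/+, at 9876, 9444 and 12779.5 in Mrps12ep/ep and at 13992, 13771 and 14401 in Mrps12ha/ha livers. The Mrps12ha/ha livers were all above the Mrps12ep/ep livers, by 0.41 (SE 0.17, interval 0.03 to 0.78, adjusted p = 0.558, exact permutation p = 0.1). Against Mrps12+/+ livers the difference was 0.26 (SE 0.17, adjusted p = 0.519), and Mrps12+/+ liver 3 lay inside the Mrps12ha/ha range.

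Opa1 in Mrps12ep/ep livers and Pink1 in Mrps12ha/ha livers were above the wild-type values in every mouse, without passing the test. Opa1 was at 3948, 4105 and 3231 in Mrps12+/+, at 4141, 4511 and 4370.1 in Mrps12ep/ep and at 4446, 4477 and 3776 in Mrps12ha/ha livers. All 3 Mrps12ep/ep livers were above the wild-type ones, with a log2 fold change of 0.21 (SE 0.11, interval -0.04 to 0.47, adjusted p = 0.558, exact permutation p = 0.1). Pink1 was at 8480.2, 9534 and 9069.9 in Mrps12+/+ livers and at 9922, 10067 and 9687 in Mrps12ha/ha livers. All 3 Mrps12ha/ha livers were higher, by 0.13 (SE 0.09, interval -0.07 to 0.34, adjusted p = 0.538, exact permutation p = 0.1). The remaining values were close. Dnm1l ran from 2103 to 2384 over all 9 livers, Mff from 1142.5 to 1357, Fis1 from 2315 to 3106, Mfn2 from 4501 to 6370.5, Bnip3l from 3287 to 4572 and Fundc1 from 322 to 449.9, with overlapping genotypes in each.

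Counted over the members, an unadjusted p under 0.05 was found in the liver for none of the 10 in Mrps12ep/ep against Mrps12+/+ (9.74% of genes), for 1 in Mrps12ha/ha against Mrps12+/+ (Mfn1, beside 14.1%) and for 2 in Mrps12ha/ha against Mrps12ep/ep (Mfn1 and Bnip3, beside 8.62%). Groups were separate for 1 of the 10 in each of these comparisons, beside 12.8%, 19.9% and 17.8% of genes. The medians of the log2 fold changes were 0.01, 0.09 and 0.07, beside -0.01, -0.02 and -0.0017 over all genes. The 12 skeletal muscle markers summed to 61.1 to 40026 in Mrps12+/+ livers and to 222 or less in every mutant liver, and the 8 adipocyte markers to 808.8 to 8839 and 1554 or less. Their part in the liver values was not tested.

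**Figure D4:**
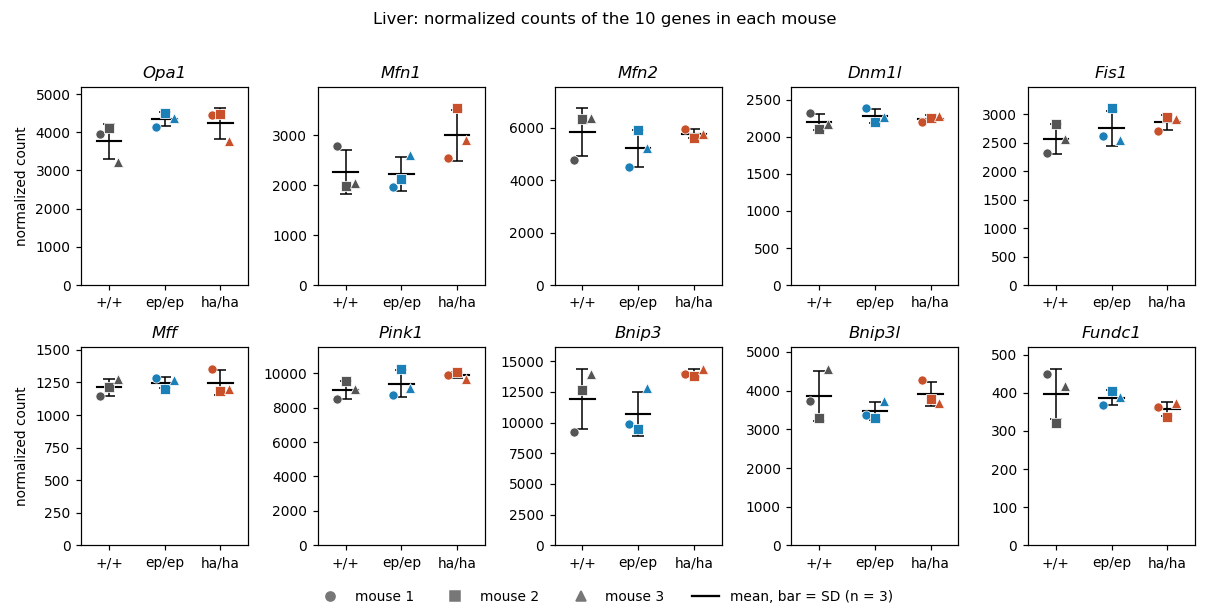
Normalized counts of the 10 genes in the 9 livers (vertical axes start at 0), drawn as for the hearts, with means and 1 SD (n = 3). Bnip3 lies between 13771 and 14401 in all 3 Mrps12ha/ha livers and Mfn1 reaches 3535.5 in 1 of them, and the genotypes overlap widely for Dnm1l and Mff.

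The difference of Mrps12ha/ha from Mrps12+/+ on the log2 scale lay lower in the heart than in the liver for Opa1, the mitofusins, Dnm1l, Mff and the 3 receptors, and higher for Fis1 (0.32), but none of these differences between tissues passed the test. For Pink1 the difference was -0.0030. Heart minus liver was -0.94 for Opa1 (-0.77 in heart and 0.17 in liver, exact permutation p = 0.085, adjusted p = 0.610), -0.58 for Bnip3 (p = 0.06), -0.50 for Mfn1 (p = 0.135) and -0.22 for Dnm1l (p = 0.085). The labels do not say whether a heart and a liver of the same number came from 1 mouse, so the exact permutation test exchanged genotypes within each tissue, over 400 splits. The smallest p it allows is 0.005. After adjustment over 14070 genes a gene could pass only if a great many genes stood at that floor. A failure to pass therefore cannot show that the tissues were alike. None of the 10 had an unadjusted p under 0.05 in this test, beside 8.31% of the 14070 genes tested in both tissues, and 0% passed after adjustment. Without Mrps12ha/ha heart 2 the differences were -1.36 for Opa1 and -0.72 for Mfn1 (exact permutation p = 0.015 for both, adjusted p = 0.214), -0.58 for Mff (p = 0.035, adjusted p = 0.284) and -0.70 for Bnip3 (p = 0.045, adjusted p = 0.307), beside 14.6% of genes with an unadjusted p under 0.05, and none passed after adjustment. For Mrps12ep/ep against Mrps12+/+ the smallest exact p of the 10 was 0.17, for Pink1, none was under 0.05, beside 4.81% of genes, and again 0% passed after adjustment.

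**Figure D5:**
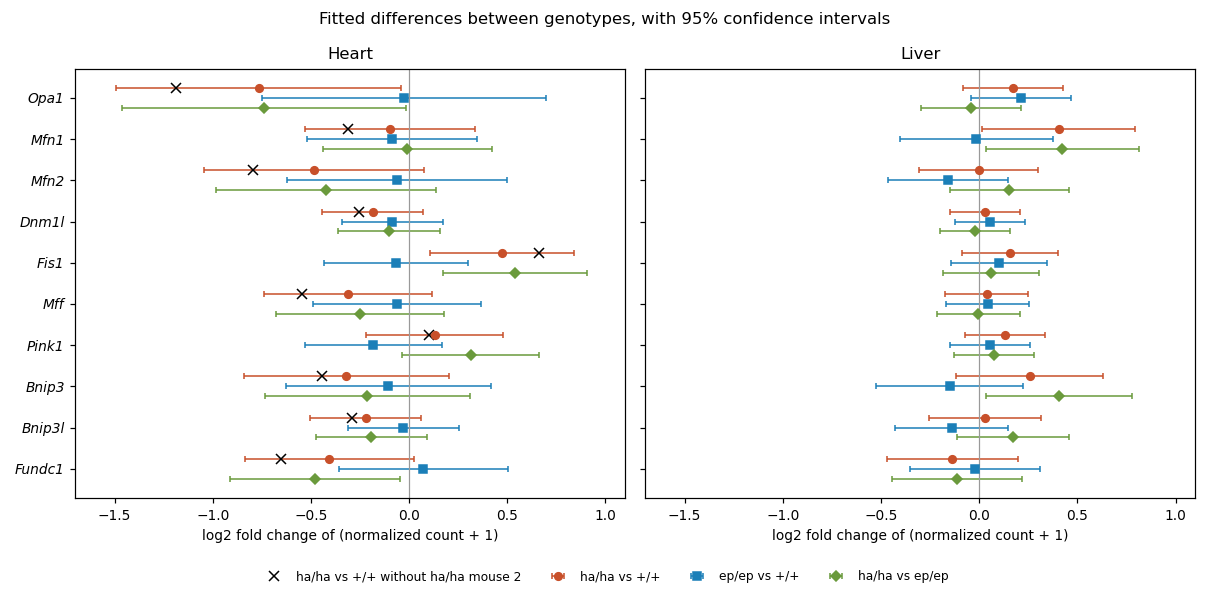
Log2 fold changes of the 10 genes between genotypes in hearts (left) and livers (right) with 95% confidence intervals from limma, and crosses for Mrps12ha/ha against Mrps12+/+ hearts without Mrps12ha/ha mouse 2. The intervals for Opa1 in Mrps12ha/ha hearts run from -1.49 to -0.04, those of Mrps12ep/ep against Mrps12+/+ include 0 for all 10 genes in both tissues, and the crosses for Opa1, Mfn2, Fundc1 and Mff lie at -1.19, -0.79, -0.65 and -0.55.

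The genes that work with the 10 were counted in 6 lists, of which 13 fusion companions, 12 fission companions, 20 mitophagy companions, 31 core autophagy genes, 19 hypoxia targets and 14 FoxO targets could be tested in the heart, and 14, 11, 20, 31, 20 and 15 in the liver. In Mrps12ha/ha against Mrps12+/+ hearts an unadjusted p under 0.05 was found for 3 of the fusion companions (1 higher and 2 lower), 2 of the fission companions (both higher), 5 of the mitophagy companions (all lower), 8 of the autophagy genes (1 higher and 7 lower), 3 of the hypoxia targets (2 higher and 1 lower) and 5 of the FoxO targets (1 higher and 4 lower). Over all genes the share was 19.7%. The median log2 fold changes were -0.33, 0.02, -0.33, -0.11, 0.01 and -0.37 in the order of the lists, beside -0.02 over all genes. After adjustment 1 gene passed, Irs2 of the FoxO list, which encodes an insulin receptor substrate (-1.76, SE 0.20, adjusted p = 0.0291). It kept this direction but missed the threshold when any 1 of 7 of the 9 hearts was left out, and passed without Mrps12ha/ha mouse 2 (adjusted p = 0.00313). Without Mrps12ha/ha mouse 2, 9 of 13, 5 of 12, 10 of 20, 13 of 31, 6 of 19 and 5 of 14 genes of these lists had an adjusted p under 0.05, beside 4330 of all 16057 genes. All 10 mitophagy companions called there were lower, as were 7 of the 9 fusion companions, 12 of the 13 autophagy genes and all 5 FoxO targets. Of the 5 fission companions called, 2 were higher and 3 lower, and of the 6 hypoxia targets 3 were higher and 3 lower.

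The genes of each list with the largest separate difference in these hearts were the following. Of the fusion companions, Parl, the rhomboid protease that cleaves PINK1, had a mean of 1448 ± 122 (SD, n = 3) in Mrps12ha/ha and 1098 ± 51.2 in Mrps12+/+ hearts (0.40, adjusted p = 0.198). Miga1, which promotes fusion at the outer membrane, had 494 ± 69.4 and 664 ± 56.2 (-0.43, adjusted p = 0.220). Inf2, a formin that assembles actin where mitochondria divide, had 2249 ± 758 and 1182 ± 136 (0.87, adjusted p = 0.206), the largest separate difference of the fission companions. Usp30, a deubiquitinase of the outer membrane that opposes mitophagy, had 419 ± 40.9 and 574 ± 22.6 (-0.46, adjusted p = 0.191). Genes were named here only if their groups were separate, mouse 2 included, as those of 21.2% of all genes were. Of the 13 fusion companions 2 were separate and higher and 2 separate and lower. So were 2 of the 12 fission companions, both higher, and 2 of the 20 mitophagy companions, both lower. In the autophagy, hypoxia and FoxO lists the counts were 1 higher and 3 lower of 31, 2 higher of 19, and 1 higher and 4 lower of 14. In the autophagy list Tfeb, a transcription factor for lysosomal genes, stood 0.34 higher (adjusted p = 0.220) and Gabarapl1, of the LC3 family, 0.44 lower (log2 fold change -0.44, adjusted p = 0.211). Ankrd37, a hypoxia target, had 296 ± 73.6 and 147.5 ± 22.6 (0.98, adjusted p = 0.207), whereas Bnip3, which belongs to the same group of targets, had the lower mean. Txnip of the FoxO list stood 0.89 higher (adjusted p = 0.191). With mouse 2 left out the adjusted p was 0.0220 for Parl, 0.0357 for Miga1, 0.00352 for Inf2, 0.0140 for Usp30, 0.0410 for Gabarapl1 and 0.0200 for Ankrd37, and 0.0695 for Tfeb and 0.0504 for Txnip.

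In the other heart comparisons no gene of the 6 lists passed after adjustment (limma). In Mrps12ep/ep against Mrps12+/+ hearts 1 gene of the FoxO list and none of the other lists had an unadjusted p under 0.05. The separate differences named here were those of Atg4b (0.15) and Atg13 (-0.24) of the autophagy machinery, and Pdk4, a kinase that inhibits pyruvate dehydrogenase (-0.68), all with an adjusted p of 1. Between the mutants' hearts, Mrps12ha/ha against Mrps12ep/ep, Parl again stood 0.42 higher and Mief2, a receptor for DRP1, 0.47 higher, with 1497 ± 62.3 and 1085 ± 99.1 (adjusted p = 0.234 and 0.209). Usp8, another deubiquitinase, had a log2 fold change of -0.37 there (adjusted p = 0.236). Tfeb (0.34), Gabarapl1 (-0.19), the hypoxia targets Higd1a (0.51) and P4ha1 (-0.74) and Irs2 (-1.25) were the others named here, with adjusted p-values from 0.157 for Irs2 to 0.461 for Gabarapl1.

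In the liver the lists of fusion, fission, mitophagy and autophagy genes had medians near 0. No gene of the 6 lists passed after adjustment in the 3 comparisons (limma). These medians lay between -0.06 and 0.06 in all 3. Between Mrps12ha/ha and Mrps12+/+ livers, 1 of 14, 0 of 11, 2 of 20 and 3 of 31 genes of these had an unadjusted p under 0.05, beside 14.1% of genes. The largest separate differences there were Pld6 (0.48), Dnm2 (-0.17), Nipsnap1, a mark of damaged mitochondria (0.33), the autophagy receptor Tax1bp1 (-0.20), Tfeb (0.51) and Atg16l1 (-0.14), with adjusted p-values from 0.247 for Tfeb to 0.635 for Pld6. Of the hypoxia targets 6 of 20 had an unadjusted p under 0.05, 5 of them lower, with a median of -0.28. Ddit4, an inhibitor of mTOR signalling that also answers to other stresses, had 403 ± 143 in Mrps12ha/ha and 2223 ± 947 in Mrps12+/+ livers (-2.42, SE 0.35, adjusted p = 0.0722), and Pdk1 stood 0.48 higher (adjusted p = 0.386). Of the FoxO targets 6 of 15 had an unadjusted p under 0.05, 4 of them lower, with Igfbp1 at -2.02 (adjusted p = 0.150) and Txnip at 0.53 (adjusted p = 0.422).

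Nipsnap1 was higher in both mutants' livers than in every Mrps12+/+ liver. Its means were 13764 ± 674 in Mrps12ep/ep, 13827 ± 483 in Mrps12ha/ha and 11141 ± 1977 in Mrps12+/+ livers, the last group being shared by both comparisons (0.32 with an adjusted p of 0.482 and 0.33 with an adjusted p of 0.308). Of the other separate differences, only the largest on either side of each list is named. In Mrps12ep/ep against Mrps12+/+ livers these were Sh3glb1 (-0.16), Fundc2, a relative of Fundc1 (-0.36), Mxi1 (0.16), Pfkfb4 (-1.11), Klf15 (0.51) and Pdk4 (-1.63), with adjusted p-values from 0.342 for Pdk4 to 0.658 for Sh3glb1. Between the mutants' livers, Mrps12ha/ha against Mrps12ep/ep, they were Inf2 (0.32), the mitophagy receptor Optn (0.32), Map1lc3b, which encodes LC3B (0.23), Atg10 (-0.32), Ddit4 (-2.17) and G6pc (-1.67), with adjusted p-values from 0.151 for Ddit4 to 0.806 for Map1lc3b. More genes of the lists were separate than are named, among them 6 higher and 5 lower of the 31 autophagy genes between the mutants' livers. Over all genes the groups were separate for 12.8% and 17.8% in these 2 comparisons. Unadjusted p-values under 0.05 were found in these 2 comparisons for 2 and 0 of the 14 fusion companions, 0 and 0 of the 11 fission companions, 2 and 0 of the 20 mitophagy companions, 0 and 2 of the 31 autophagy genes, 3 and 4 of the 20 hypoxia targets and 3 and 6 of the 15 FoxO targets, beside 9.74% and 8.62% of all genes.

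Opa1, Bnip3 and Mfn2 varied most over the 18 hearts and livers, with SDs of 0.40, 0.28 and 0.28 of their log2 values centred within each tissue. The genes most like each were sought among the 14070 genes tested in both tissues by the mean absolute difference of these centred values over the 18 columns. For Opa1 they included Hspd1, for the mitochondrial chaperonin HSP60 (0.08), and Ptgr2 (0.09). For Mfn2 they were Tgoln1 (0.07), Pcyt1a, for an enzyme of phosphatidylcholine synthesis (0.07), and Fto (0.08). Bnip3 had no gene as close: Optn, Plin3 and Gatb stood at 0.12 each. All 18 columns enter this measure, and the low Mrps12ha/ha hearts 1 and 3 weigh in it for Opa1 and Mfn2.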

How the data were processed

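Gene expression in 9 hearts and 9 livers was taken from the authors' tables, 1 per tissue. Per the sources, the authors trimmed reads with Trim Galore 0.4.1 and cutadapt 1.18, quantified genes with Salmon 1.1.0 on GENCODE vM21 and GRCm38.p6 with sequence and GC bias correction, left out mitochondrial transcripts and deposited counts divided by DESeq2 size factors, set separately for each tissue. Low values came in whole steps (100% within 0.1 of a step), which gave the reads behind each column. The deposited fold changes and p-values are the authors' own comparisons and were not used.

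Values were transformed as log2(normalized count + 1) and fitted with limma 3.58.1 in R 4.3.3 (lmFit, eBayes with trend), all 3 genotypes of a tissue together, on genes with a mean of at least 10 (16057 in hearts, 15314 in livers). Benjamini-Hochberg adjustment ran over every gene tested, with a threshold of 0.05. Exact permutation tests were two-sided. Python 3.11.15, numpy 2.4.6, pandas 2.3.3 and scipy 1.17.1 were used for the rest, and the tests were tried on simulated data. No 2 mice of the same genotype agreed within sampling noise in either tissue.

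The 10 genes, the gene lists and the marker lists (cardiomyocyte, atrial, hepatocyte, erythroid, skeletal muscle, adipocyte, macrophage) were chosen with earlier results of these data known. Named genes are the 10, Mrps12, the genes of each companion list past the threshold or else, per comparison, the gene furthest from 0 on either side whose groups were separate, and the 3 genes most like each of the 3 most variable members. Alternatives were other pseudocounts, filters, scalings, weights and fits, and leaving out each mouse. Removing a trend on length and GC was added after the data were seen. Some genes that this rule names are not reported here.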

Additional observations from a re-analysis of the deposited data

How the results depend on the processing

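Over 60 member results, 1201 of 1290 alternative values kept their direction and their side of the threshold, 32 crossed the threshold in the same direction and 57 turned their sign, in 20 results whose size was at most 0.13 on the log2 scale. The crossings came with array weights or without Mrps12ha/ha heart 2. The number of members called stayed 0 in each comparison except Mrps12ha/ha against Mrps12+/+ hearts, where 5 were called with array weights, 0 to 5 when each mouse was left out (5 without Mrps12ha/ha heart 2) and 5 with the length and GC trend removed and that heart left out, and Mrps12ha/ha against Mrps12ep/ep hearts, with 7, 0 to 5 (5 without the same heart) and 5. The cause of these shifts was not tested.

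Over all genes, Mrps12ha/ha against Mrps12+/+ hearts gave 5 calls, and 5573 with array weights, 3 with limma-voom, 3893 with the trend removed and heart 2 left out, and 3 to 4330 when each mouse was left out. Lower counts of 3 came without Mrps12+/+ heart 1 and without Mrps12ep/ep heart 3. Mrps12ep/ep against Mrps12+/+ hearts gave 0 calls (271 genes at an unadjusted p under 0.05, limma), 1 with a pseudocount of 0.1 or 8 or with only the 2 genotypes compared, 2 with no filter, quantile normalization, robust moderation or limma-voom, 3 with array weights, and 0 to 1 when each mouse was left out (1 without Mrps12+/+ heart 3 or Mrps12ep/ep heart 2). Mrps12ha/ha against Mrps12ep/ep hearts gave 4 calls, 6314 with array weights, 3073 with the trend removed and heart 2 left out, and 3 to 3730 when each mouse was left out. In livers each comparison gave 1 call. For Mrps12ep/ep against Mrps12+/+ it was 0 with a pseudocount of 0.1, a mean of at least 50, limma-voom or only the 2 genotypes, 2 with no filter, and 1 to 68 when each mouse was left out (68 without Mrps12+/+ liver 3 and 26 without liver 1). For Mrps12ha/ha against Mrps12+/+ it was 0 with a pseudocount of 0.1, a mean of at least 50 or limma-voom, 3 with no filter or the trend removed, 4 with array weights, and 0 to 90 when each mouse was left out (90 without Mrps12+/+ liver 2 and 76 without liver 3). For Mrps12ha/ha against Mrps12ep/ep it was 13 with array weights, 4 with robust moderation, 18 with only the 2 genotypes, and 0 to 11 when each mouse was left out (11 without Mrps12+/+ liver 1 and 10 without liver 3).

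Mice of the same number in different genotypes had correlations of their deviations from -0.23 to 0.58 in hearts and from -0.13 to 0.16 in livers over 9 pairs each. Mice of different numbers had correlations from -0.59 to 0.35 in hearts and from -0.29 to 0.16 in livers. The highest in hearts were between Mrps12+/+ and Mrps12ep/ep mice of number 1 (0.58) and number 2 (0.41), with -0.07 for number 3. The numbers were not taken to pair the mice, which these values do not settle. With the replicate block the calls over all genes were 3 for Mrps12ha/ha against Mrps12+/+, 0 for Mrps12ep/ep against Mrps12+/+ and 4 for Mrps12ha/ha against Mrps12ep/ep hearts, and 9 for Mrps12ep/ep against Mrps12+/+, 7 for Mrps12ha/ha against Mrps12+/+ and 6 for Mrps12ha/ha against Mrps12ep/ep livers, with 0 members in each. Irs2 kept its direction in Mrps12ha/ha against Mrps12+/+ hearts and missed the threshold under the block.

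The log2 fold changes that turned their sign were small. For Mrps12ha/ha against Mrps12+/+ hearts the sign turned for Mfn1 at 0.041 and Pink1 at -0.023 with the trend removed, and Pink1 at -0.13 with the trend removed and heart 2 left out. There, with each mouse left out in turn, the value ran from -0.31 to 0.030 for Mfn1. For Mrps12ep/ep against Mrps12+/+ hearts the sign turned for Opa1 at 0.21, Mfn1 at 0.069, Mfn2 at 0.021, Dnm1l at 0.028, Mff at 0.00045 and Bnip3 at 0.15 with array weights, and Mfn2 at 0.012 with quantile normalization. There, with each mouse left out in turn, the value ran from -0.17 to 0.18 for Opa1, from -0.19 to 0.037 for Mfn1, from -0.25 to 0.15 for Bnip3 and from -0.071 to 0.0024 for Bnip3l. For Mrps12ha/ha against Mrps12ep/ep hearts the sign turned for Mfn1 at 0.037 re-centred on the median, Mfn1 at 0.010 with limma-voom, Mfn1 at 0.15 and Dnm1l at 0.040 with the trend removed, and Dnm1l at 0.027 with the trend removed and heart 2 left out. There, with each mouse left out in turn, the value ran from -0.22 to 0.12 for Mfn1. For Mrps12ep/ep against Mrps12+/+ livers the sign turned for Mfn1 at 0.021 and Fundc1 at 0.015 re-centred on the median, Mfn1 at 0.051 and Fundc1 at 0.063 with array weights, Mfn1 at 0.0012 with the trend removed, and Fundc1 at 0.022 with quantile normalization. There, with each mouse left out in turn, the value ran from -0.14 to 0.14 for Mfn1, from -0.011 to 0.11 for Pink1 and from -0.17 to 0.075 for Fundc1. For Mrps12ha/ha against Mrps12+/+ livers the sign turned for Mfn2 at 0.037 re-centred on the median. There, with each mouse left out in turn, the value ran from -0.14 to 0.067 for Mfn2, from -0.024 to 0.076 for Mff and from -0.079 to 0.16 for Bnip3l. For Mrps12ha/ha against Mrps12ep/ep livers the sign turned for Opa1 at 0.011, Dnm1l at 0.034 and Mff at 0.0084 with the trend removed, and Mff at 0.0075 with quantile normalization. There, with each mouse left out in turn, the value ran from -0.082 to 0.040 for Opa1, from -0.048 to 0.012 for Dnm1l and from -0.067 to 0.032 for Mff.

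The alternatives edgeR and DESeq2 on recovered reads were not run. Removing the trend was chosen after seeing the data.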
